A study of Mus musculus with 6 samples.

Results

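The mitochondrially encoded transcripts are the RNAs made from the mitochondrion's own circular genome. They were taken as every row of the gene count table whose chromosome was MT, which gave 37 of 53715 genes: 13 mRNA genes, 2 rRNA genes and 22 tRNA genes. All 37 had the same position and strand in GENCODE M21 (GRCm38), and the selection used no measured value. The study took piriform cortex, the olfactory cortex of the ventral forebrain, from Gad2-Cre mice, which carry Cre recombinase under Gad2, a gene of GABAergic neurons. An adeno-associated virus (AAV) was injected on one side. Its Cre-dependent (DIO) cargo was caspase-3, an engineered executioner protease meant to remove Gad2 neurons, in the Caspase3 group (3 libraries), and GFP in the control group (3 libraries). Both groups thus carried the Cre allele and received a Cre-dependent virus. Strain, age, sex and time after injection are not given in the sources used here, nor whether each library came from its own animal. The p-values therefore cover only the spread among these 6 libraries, part of which may be technical.

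The mitochondrial genome is transcribed from both strands into long RNAs that are cut into mRNAs, rRNAs and tRNAs, with the tRNAs lying between many of the other genes and marking the places where the long RNA is cut. Most of its mRNAs receive a short poly(A) tail, and its rRNAs shorter ones, so RNAs of both kinds can enter a poly(A) library. The mRNAs encode core subunits of respiratory complexes I, III and IV and of ATP synthase. Every other subunit of these complexes is encoded in the nucleus, and neurons rely on them heavily for ATP.

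RNA was sequenced as poly(A) libraries, and reads were counted per gene. The total count per library ran from 20424581 to 26268377, and 3 counts, the floor used for detection, came to 0.118 to 0.142 CPM (a gene's count scaled to its library's total times edgeR's TMM factor, here and throughout). Gad2 stood at 26.7, 38.5 and 38.0 CPM in Caspase3 replicates 1 to 3 and at 92.4, 118.0 and 103.7 CPM in GFP replicates 1 to 3, which was 3.04-fold lower (edgeR's quasi-likelihood test, adjusted p = 0.00371), so the labels matched the targeted gene. GFP replicate 3 stood apart: its 10 striatal projection neuron markers summed to 1667 CPM, against 424 and 538 CPM in the other GFP libraries and 404 to 422 CPM in the Caspase3 libraries. Its values are therefore named beside each result they touch. The 10 pan-neuronal markers summed to 8867 to 10267 CPM in the Caspase3 group and 9569 to 12527 CPM in the GFP group, and the 10 excitatory cortical neuron markers to 3857 to 4297 and 3751 to 4378 CPM. In these tissue samples, fewer cells of a type and less RNA per cell cannot be told apart.

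The 3′ ends of the mRNA genes are shown because the stop codon of some of them is not fully encoded. Of the 13 genes, 8 end in TAA, 2 end in TAG and 3 end in a single T beyond their whole codons, where the tail's first adenines complete the stop codon in the RNA. The last 15 bases of an example of the complete kinds and of all 3 incomplete ones, from GENCODE M21 and read 5′ to 3′ on the gene's strand, are given with the stop bases in capitals.
mt-Co1: gtaaaagtaaaaTAA
mt-Nd1: ccaccatacataTAG
mt-Co3: attgatgaggatctT
mt-Nd4: caggcctgacaataT
mt-Cytb: taaaattatatccaT

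Some neighbouring genes overlap. The mt-Atp8 and mt-Atp6 reading frames share 43 bases, mt-Nd4l and mt-Nd4 share 7, and mt-Nd5 and mt-Nd6 share 14 on opposite strands. The sources used here do not give how reads in shared bases were assigned or whether strand was used.

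A stretch of chromosome 1 carries a nearly identical copy of part of the mitochondrial genome, and the mRNA genes inside and outside that part differed widely in level. In GENCODE M21, 7 pseudogene rows of the count table, read in order, ran from chr1:24611535-24616188 on the minus strand (4654 bases, GRCm38) alongside chrM:6390-11042 (4653 bases). The copies were Gm29216 for the last 483 bases of mt-Co1, Gm28661 for mt-Co2, Gm10925 for mt-Atp6, Gm28437 for mt-Co3, Gm28438 for mt-Nd3, Gm10222 for mt-Nd4l and Gm28439 for the first 876 bases of mt-Nd4. Of these, 5 were 100% identical over their aligned bases. Gm29216 was 99.8% identical with the substitution A1066T, and Gm28438 was 99.7% identical with T3C, both counted from 1 at the first base of the mitochondrial gene, mitochondrial base first. The bases around both substitutions are shown because they are the only mismatches in the aligned bases of the 7 pairs, with the differing base in capitals.
mt-Co1 (chrM:6390-6408): ggaAttgttttatccaact
Gm29216 (chr1:24616170-24616188): ggaTttgttttatccaact
mt-Nd3 (chrM:9459-9476): atTaacctgtacactgtt
Gm28438 (chr1:24613102-24613119): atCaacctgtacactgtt

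By position, 6 mRNA genes (mt-Co2, mt-Atp8, mt-Atp6, mt-Co3, mt-Nd3 and mt-Nd4l) and 5 tRNA genes lie inside the copied span, and mt-Co1 and mt-Nd4 lie partly inside. Beyond the bases shared with mt-Atp6, no copy of mt-Atp8 was aligned, so it counts as inside by position only. The same holds for the 5 tRNA genes. The other 5 mRNA genes, both rRNA genes and 17 tRNA genes lie outside. On the FPKM scale, which divides by gene length, the 6 mRNA genes inside the span ranged from 19.4 to 540.4 in single libraries, and the 5 outside from 2996 to 7861. No library of an inside gene reached the lowest library of an outside gene. Reads that match a mitochondrial gene and its copy equally can be dropped, split or placed at random by an aligner and counter. The sources used here do not say which was done, and its part in these levels was not tested. The levels of the 6 genes inside the span are therefore uncertain. Those of mt-Co1 and mt-Nd4 are uncertain in part, since their copies match 31.3% and 63.6% of their bases.

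**Figure D1:**
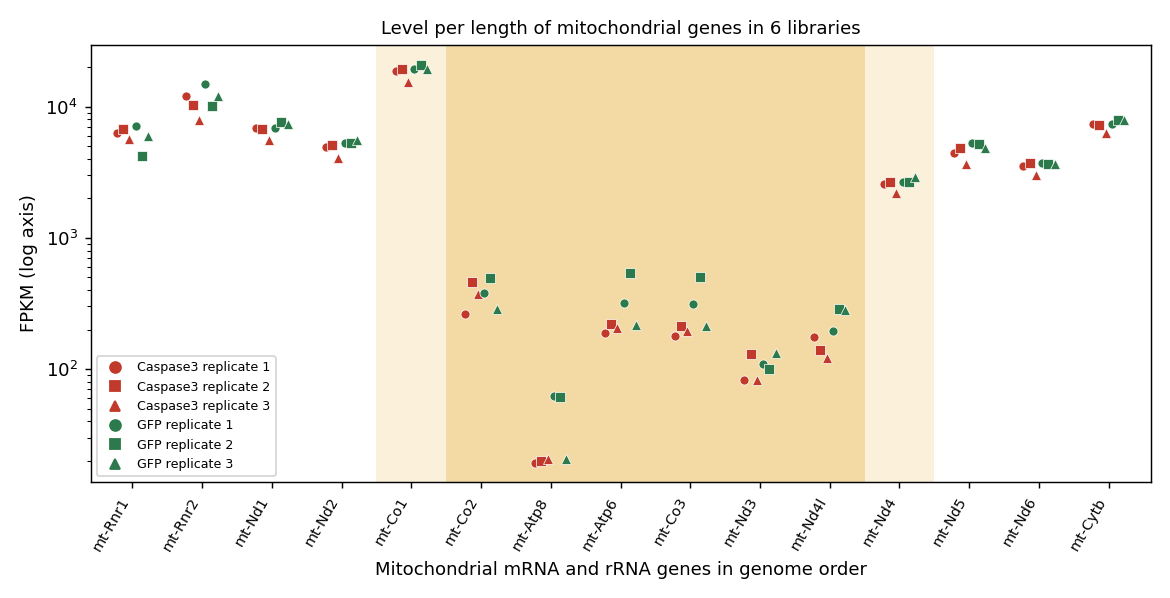
Level of each mitochondrial mRNA and rRNA gene in FPKM (log axis) in the 6 libraries, in genome order. Points are single libraries; darker shading marks genes inside the span copied on chromosome 1 and lighter shading genes partly inside. The 6 genes inside the span lie between 19.4 and 540.4 FPKM and the 5 mRNA genes outside it between 2996 and 7861.

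The order of levels per length was led by mt-Co1, the catalytic subunit of complex IV. Its mean over the 6 libraries was 18839 ± 1788 FPKM (SD, n = 6), and it also held the largest total count of any gene in the table. It was followed by mt-Rnr2, the large-subunit rRNA, at 11187 ± 2328, and then by mt-Cytb at 7353 ± 561. The ranges of mt-Co1 and mt-Rnr2 did not overlap, nor did those of mt-Rnr2 and mt-Cytb. From mt-Cytb down through mt-Nd1 (6838 ± 743), mt-Rnr1 (6001 ± 1041), mt-Nd2 (5033 ± 515), mt-Nd5 (4708 ± 608) and mt-Nd6 (3547 ± 282), each neighbour overlapped the next except that mt-Nd6 stayed above mt-Nd4 (2610 ± 232). mt-Nd4 was in turn above mt-Co2 (377 ± 91.3) in all 6 libraries without overlap. The last places were held by mt-Atp6, mt-Co3, mt-Nd4l and mt-Nd3, with means of 282, 269, 199.8 and 106.7 FPKM, and by mt-Atp8 at 34.0 ± 21.5 FPKM. The places of mt-Co1, mt-Nd4 and the genes inside the copied span depend on how reads shared with the copies were placed.

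The mitochondrial share of all counts did not differ between groups beyond the spread of the libraries. It was 9.25%, 8.67% and 7.45% in Caspase3 replicates 1 to 3 and 9.41%, 8.65% and 9.27% in GFP replicates 1 to 3. The means were 8.45% ± 0.919 and 9.11% ± 0.400 (SD, n = 3 each; exact permutation test, two-sided, p = 0.3). Only Caspase3 replicate 3 lay below the GFP range, and without it the difference of -0.656 percentage points became -0.152. The widest 95% Wilson interval of a single library ran from 9.24% to 9.26%, covering counting error only, so the spread between libraries was far larger than counting error.

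On the CPM scale, which includes TMM, edgeR's library normalization, the mitochondrial rows summed to 89503, 88292 and 71168 CPM in the Caspase3 group and to 96877, 90031 and 92542 CPM in the GFP group. Here the Caspase3 libraries all lay below the GFP libraries, with a difference of means of -10162 CPM. Caspase3 replicate 3 carried much of this: without it the difference was -4252 CPM. The exact permutation test over all libraries gave p = 0.1, the smallest possible, and an adjusted p of 0.8 over 16 quantities compared. In the same libraries 8 of 10 microglia markers were called higher in the Caspase3 group, against 1.53% of all tested genes, with summed levels of 729 to 1048 CPM against 389 to 467 CPM. No marker of that list was at 0 in every library, and its part in the mitochondrial values was not tested. Of 12 GABAergic neuron markers, only Gad2 passed, lower, where 0.114% of all tested genes were lower, and the summed level was 420 to 629 CPM against 720 to 1042 CPM, with no marker at 0 in every library. Its part was not tested either.

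**Figure D2:**
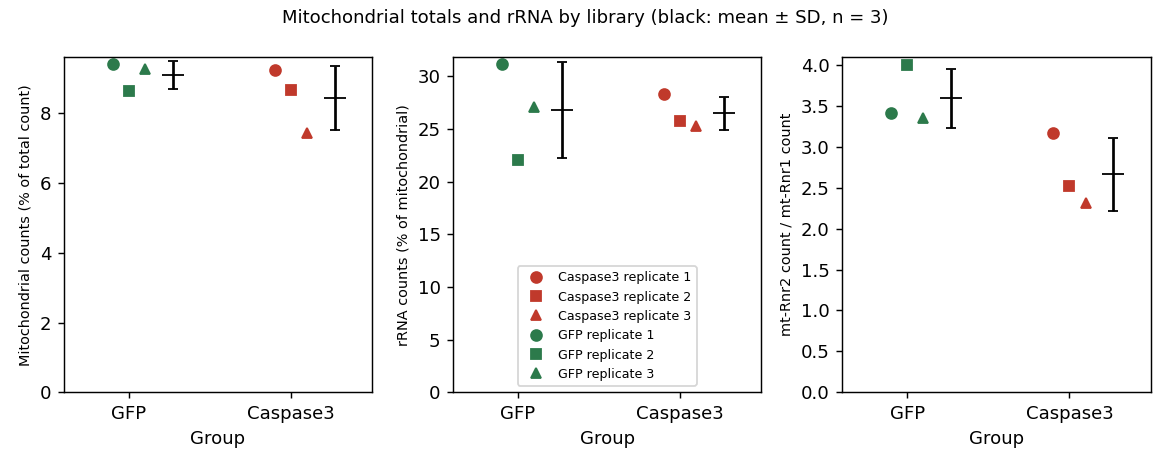
Left, mitochondrial counts as a percentage of the total count; middle, rRNA counts as a percentage of mitochondrial counts; right, ratio of mt-Rnr2 to mt-Rnr1 counts. Coloured points are single libraries and black marks the mean ± SD (n = 3). The groups overlap in the left and middle panels; in the right panel all 3 Caspase3 libraries lie below all 3 GFP libraries.

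No mitochondrial gene passed the test between groups. Of the 37 genes, 28 passed the filter on low counts (13 mRNA, 2 rRNA and 13 tRNA genes) among 16721 genes tested. None was called higher or lower by edgeR's quasi-likelihood test at an adjusted p of 0.05, where 0.114% of all tested genes were lower and 1.53% higher. At an unadjusted p under 0.05, 4 members were lower (mt-Co3, mt-Atp6, mt-Nd4l and mt-Atp8), against 3.91% of all tested genes, and 0 were higher, against 6.72%. DESeq2 called 2 of them lower (mt-Nd4l and mt-Atp8), where it called 0.481% of all genes lower, and limma-voom called 0, where it called 0.0837% of all genes lower. On simulated counts 15.3% of DESeq2's calls were false, against 6.98% of edgeR's. All 4 members with an unadjusted p under 0.05 lie inside the span copied on chromosome 1, mt-Atp8 by its position only.

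Most estimates were negative. Of the 28, 27 had a negative log2 fold change, against 50.2% of all tested genes, and mt-Rnr1 alone was positive. The median was -0.26 against -0.00114 over all genes tested. Mitochondrial genes share long precursor RNAs and a common library total, so their signs are not independent. Without GFP replicate 3 the median was -0.09 and 16 of the 28 were negative. The mRNA genes all stayed negative in that fit, and the signs that turned were those of 11 tRNA genes. The CPM of 5 members did not overlap between groups and was lower in the Caspase3 group (mt-Nd2, mt-Atp8, mt-Co3, mt-Nd4l and mt-Nd5), against 6.29% of all tested genes, and 0 were higher without overlap, against 8.96%. For mt-Atp8 the highest Caspase3 and the lowest GFP library were all but equal (4.260 and 4.261 CPM). For mt-Co3 they nearly met (167.1 and 167.5 CPM).

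**Figure D3:**
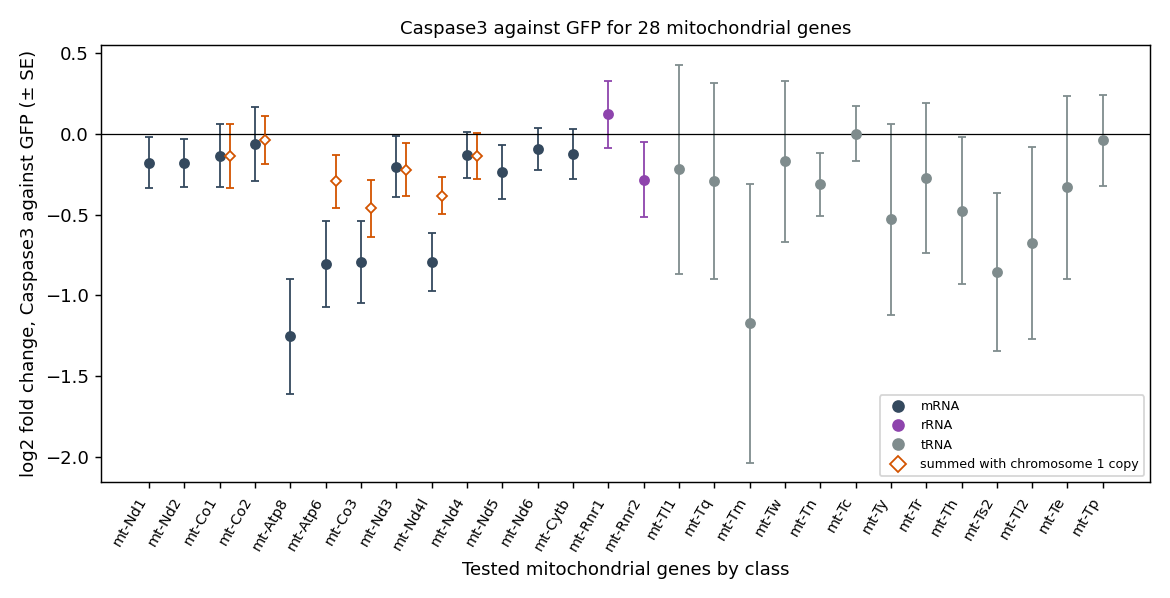
log2 fold change, Caspase3 against GFP, with its SE, for the 28 tested mitochondrial genes in edgeR's fit. Filled points are the gene's own row, by class; open diamonds are the count summed with the gene's chromosome 1 copy. The points furthest below 0 among mRNA genes are mt-Atp8, mt-Atp6, mt-Nd4l and mt-Co3, and the diamonds of mt-Atp6, mt-Co3 and mt-Nd4l lie closer to 0. The diamonds of mt-Nd3 and mt-Nd4 lie slightly further from 0 than their points, and that of mt-Co2 slightly closer.

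Complex I, which takes electrons from NADH and pumps protons, has 7 subunits encoded here. The gene with the lowest adjusted p of all members was mt-Nd4l, a small membrane-arm subunit (chrM:9877-10173, plus strand). It stood at 53.0, 41.5 and 36.4 CPM in Caspase3 replicates 1 to 3 and at 57.8, 84.8 and 84.1 CPM in GFP replicates 1 to 3. The groups did not overlap, although Caspase3 replicate 1 and GFP replicate 1 lay close together, and GFP replicate 3 lay with GFP replicate 2. The level was 1.73-fold lower, with a log2 fold change of -0.79 ± 0.18 (SE; edgeR, adjusted p = 0.0796). Leaving out Caspase3 replicate 1 or GFP replicate 1 took it past the threshold, at -0.95 in both cases (edgeR, adjusted p = 0.0264 and 0.0298).

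The other membrane-arm subunits of complex I did not pass the test either, and their fold changes were smaller. mt-Nd5, a proton-pumping subunit (chrM:11742-13565, plus strand), stood at 8179, 8858 and 6714 CPM in the Caspase3 group and at 9704, 9423 and 8898 CPM in the GFP group. Its groups did not overlap, although Caspase3 replicate 2 and GFP replicate 3 nearly met, and its log2 fold change was -0.24 ± 0.17 (edgeR, adjusted p = 0.684). mt-Nd2, also a proton-pumping subunit (chrM:3914-4951, plus strand), stood at 5206, 5281 and 4277 CPM against 5456, 5451 and 5832 CPM. It too was lower in every Caspase3 library, mostly through replicate 3, with a log2 fold change of -0.18 ± 0.15 (edgeR, adjusted p = 0.737).

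mt-Nd1 (chrM:2751-3707, plus strand), which lines the ubiquinone-binding site, stood at 6654, 6519 and 5328 CPM in the Caspase3 group and 6539, 7309 and 7114 CPM in the GFP group, and the groups overlapped. mt-Nd4 (chrM:10167-11544, plus strand), a further pumping subunit, stood at 3636, 3672 and 3038 CPM against 3697, 3645 and 4006 CPM. mt-Nd3 (chrM:9459-9806, plus strand), a small subunit near the ubiquinone site, stood at 29.2, 45.7 and 29.1 CPM against 38.4, 34.6 and 46.8 CPM. For these 3 genes the log2 fold changes were -0.18, -0.13 and -0.20, and the adjusted p-values were 0.751, 0.795 and 0.762.

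mt-Nd6 is the only mRNA gene on the minus strand (chrM:13552-14070) and so comes from the other precursor RNA. It stood at 1858, 1941 and 1569 CPM in the Caspase3 group and at 1941, 1902 and 1891 CPM in the GFP group. Its log2 fold change of -0.10 ± 0.13 (edgeR, adjusted p = 0.841) had the smallest SE of the 13 mRNA genes. Caspase3 replicate 3 was again the lowest library. Whether all reads on the mt-Nd6 row came from the minus-strand RNA was not tested, since the sources used here do not give the strand setting.

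Complex III has mt-Cytb as its single mitochondrially encoded subunit, which holds both ubiquinone sites of the complex (chrM:14145-15288, plus strand). It stood at 8604, 8350 and 7297 CPM in the Caspase3 group and at 8517, 8923 and 9041 CPM in the GFP group. The groups overlapped, and the log2 fold change was -0.13 ± 0.15 (edgeR, adjusted p = 0.823).

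Complex IV, cytochrome c oxidase, passes electrons to oxygen and has 3 subunits encoded here. mt-Co1 (chrM:5328-6872, plus strand), which carries the heme and copper centre, stood at 29362, 30050 and 24215 CPM in the Caspase3 group and at 29850, 32159 and 29878 CPM in the GFP group. It overlapped between groups, with a log2 fold change of -0.14 ± 0.20 (edgeR, adjusted p = 0.855). mt-Co2 (chrM:7013-7696, plus strand), which receives electrons from cytochrome c, stood at 183.3, 316.4 and 259.7 CPM against 260.5, 335.6 and 197.5 CPM. Its log2 fold change was the smallest of the mRNA genes, -0.06 ± 0.23 (adjusted p = 0.945), and it was positive without Caspase3 replicate 1 or without GFP replicate 2 (0.12 and 0.14).

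mt-Co3 (chrM:8607-9390, plus strand), a structural core subunit, stood at 143.5, 167.1 and 153.4 CPM in the Caspase3 group and at 245.8, 389.9 and 167.5 CPM in the GFP group. The Caspase3 libraries were close to each other, and GFP replicate 3 stood just above the highest of them. The level was 1.73-fold lower, with a log2 fold change of -0.79 ± 0.25 (edgeR, adjusted p = 0.268). Without GFP replicate 3 it was -1.05 (edgeR, adjusted p = 0.0472), and without GFP replicate 2, the highest library, -0.42 (adjusted p = 0.591).

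ATP synthase uses the proton gradient to make ATP, and mt-Atp6 and mt-Atp8 encode parts of its membrane sector, from a shared mRNA. mt-Atp8 (chrM:7766-7969, plus strand) is shown whole, since it had the most negative log2 fold change of the mRNA genes; the capitals are the bases it shares with mt-Atp6.
mt-Atp8: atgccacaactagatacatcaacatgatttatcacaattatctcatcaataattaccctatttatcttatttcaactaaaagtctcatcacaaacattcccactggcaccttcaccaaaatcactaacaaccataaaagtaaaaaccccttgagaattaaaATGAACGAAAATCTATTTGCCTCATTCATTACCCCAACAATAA

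mt-Atp8 stood at 4.03, 4.05 and 4.26 CPM in the Caspase3 group and at 12.8, 12.4 and 4.26 CPM in the GFP group, from 85 to 108 and 97 to 313 counts. GFP replicates 1 and 2 were far above the other 4 libraries, and GFP replicate 3 lay at the Caspase3 level. The log2 fold change was -1.25 ± 0.36 (edgeR, adjusted p = 0.191), a level 2.38-fold lower. Without GFP replicate 3 it was -1.62 (edgeR, adjusted p = 0.0169), and without any other library it ran from -1.02 to -1.30 and did not pass.

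mt-Atp6, the proton-channel subunit (chrM:7927-8607, plus strand), stood at 130.9, 149.5 and 140.1 CPM in the Caspase3 group and at 219.1, 366.1 and 149.5 CPM in the GFP group. It showed the same arrangement as mt-Atp8 and mt-Co3, with GFP replicate 3 among the Caspase3 libraries, and its groups overlapped. The log2 fold change was -0.81 ± 0.27 (edgeR, adjusted p = 0.289). It was -0.39 without GFP replicate 2 (adjusted p = 0.624) and -1.07 without GFP replicate 3 (adjusted p = 0.0556). The 3 genes are neighbours in the genome and lie inside the copied span.

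For the 7 genes with a near-identical chromosome 1 row, the division of counts between both rows varied most for genes inside the copied span. It was nearly constant for mt-Co1 (99.3% to 99.4% on the mitochondrial row) and mt-Nd4 (94.3% to 95.2%), which lie partly inside. The mitochondrial rows of both genes also count bases without a copy, which by itself holds these percentages high. Their spread is therefore not like for like with that of the genes inside. mt-Atp6 held 25.4%, 26.1% and 30.5% of its pair in the Caspase3 group and 37.9%, 46.3% and 28.3% in the GFP group. mt-Co3 held 40.8%, 45.1% and 48.0% against 56.3%, 62.7% and 44.5%. mt-Nd4l held 42.1%, 39.0% and 34.5% against 45.3%, 55.2% and 52.8%, the only pair without overlap between groups (exact permutation test p = 0.1, the smallest possible; adjusted p = 0.7 over 7 pairs).

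The chromosome 1 rows themselves differed little between groups: their log2 fold changes ran from -0.27 to -0.01 and their adjusted p-values (edgeR) from 0.530 to 0.983. Adding each mitochondrial row to its copy before the fit, an alternative chosen after the data were seen, gave log2 fold changes of -0.29 for mt-Atp6, -0.46 for mt-Co3 and -0.38 for mt-Nd4l, where the rows alone gave -0.81, -0.79 and -0.79. The adjusted p-values (edgeR) of these summed rows were 0.585, 0.370 and 0.234. For mt-Co1, mt-Co2, mt-Nd3 and mt-Nd4 the sums gave -0.136, -0.04, -0.224 and -0.140. Their rows alone gave -0.136, -0.06, -0.203 and -0.133. By arithmetic, a copy row that differs little between groups draws the sum towards its own value. mt-Atp8 has no copy row in the table, so no sum could be made for it. The part of read placement in the differences of these rows was not tested.

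**Figure D4:**
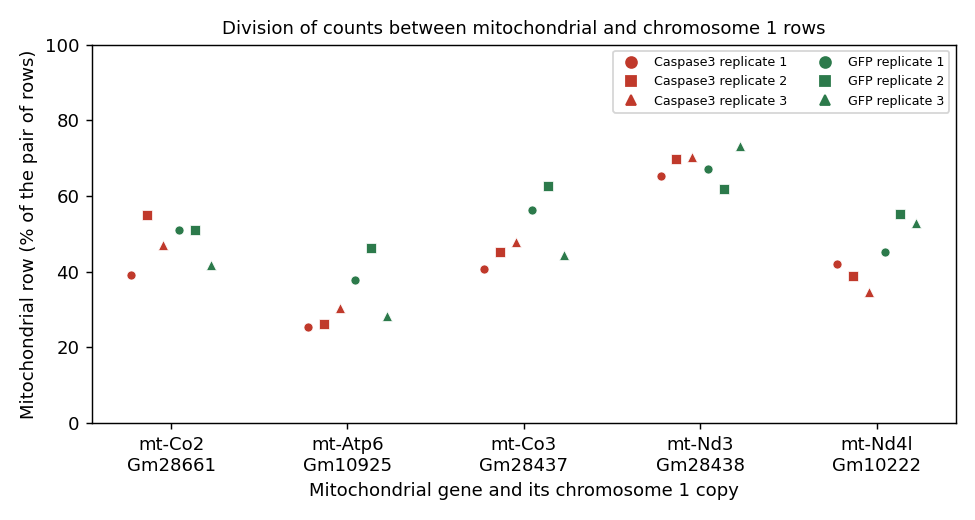
Share of the counts of each pair of rows that sits on the mitochondrial row, in percent, for the 5 mRNA genes inside the copied span that have a chromosome 1 row. Points are single libraries. For mt-Nd4l the 3 Caspase3 libraries (34.5% to 42.1%) lie below the 3 GFP libraries (45.3% to 55.2%); the other 4 pairs overlap between groups.

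The rRNA genes encode the small-subunit (mt-Rnr1, 12S) and large-subunit (mt-Rnr2, 16S) rRNAs of the mitochondrial ribosome, and both lie outside the copied span. mt-Rnr1 (chrM:70-1024, plus strand) stood at 6077, 6480 and 5446 CPM in the Caspase3 group and at 6850, 3973 and 5758 CPM in the GFP group. GFP replicate 2 was the lowest library by far, and the log2 fold change was 0.12 ± 0.21 (edgeR, adjusted p = 0.883), or -0.07 without that library. mt-Rnr2 (chrM:1094-2675, plus strand) stood at 19259, 16307 and 12574 CPM against 23381, 15917 and 19318 CPM. The groups overlapped, with a log2 fold change of -0.28 ± 0.23 (edgeR, adjusted p = 0.731).

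The ratio of the rRNA genes separated the groups, although neither gene did. The mt-Rnr2 count was 3.17, 2.52 and 2.31 times the mt-Rnr1 count in Caspase3 replicates 1 to 3 and 3.41, 4.01 and 3.35 times in GFP replicates 1 to 3. The means were 2.66 ± 0.449 and 3.59 ± 0.361 (SD, n = 3 each). GFP replicate 3 lay with the other GFP libraries here. The ratio was chosen with these values known, so it is a description.

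Because an A-rich stretch inside an rRNA can itself be captured with oligo(dT), the longest run of A in each rRNA gene is shown with 15 bases on both sides, the run in capitals. It is 5 bases long in mt-Rnr1 and 7 in mt-Rnr2. The sources used here do not say how poly(A) RNA was selected, and the part of these runs in the counts was not tested.
mt-Rnr1 (chrM:690-724): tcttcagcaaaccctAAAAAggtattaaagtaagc
mt-Rnr2 (chrM:1473-1509): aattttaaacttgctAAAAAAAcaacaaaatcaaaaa

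The tRNA genes, 59 to 75 bases long, carried few counts. Together they made up 0.139%, 0.124% and 0.119% of mitochondrial counts in the Caspase3 group and 0.111%, 0.116% and 0.169% in the GFP group. mt-Tn (asparagine), mt-Tc (cysteine) and mt-Tp (proline) held most of these, and all 3 lie on the minus strand, opposite the precursor that carries the rRNAs and all mRNAs but mt-Nd6. Minus-strand tRNA genes made up 73.0% of tRNA counts in GFP replicate 3 and 81.9% to 92.5% in the other libraries. The sequences of the 3 genes are given with the longest run of A in capitals; none has a run over 3 bases.
mt-Tn (chrM:5089-5159): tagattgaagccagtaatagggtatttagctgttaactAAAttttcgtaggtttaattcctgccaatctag
mt-Tc (chrM:5192-5257): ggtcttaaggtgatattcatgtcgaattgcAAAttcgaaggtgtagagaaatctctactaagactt
mt-Tp (chrM:15356-15422): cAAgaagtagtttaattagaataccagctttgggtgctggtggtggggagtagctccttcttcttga

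mt-Tn stood at 33.8, 43.0 and 23.9 CPM in the Caspase3 group and at 42.8, 46.6 and 35.6 CPM in the GFP group. mt-Tc stood at 34.4, 33.8 and 24.4 CPM against 27.2, 27.8 and 37.6 CPM. mt-Tp stood at 34.2, 16.8 and 16.3 CPM against 20.8, 19.6 and 28.7 CPM. All 3 overlapped between groups, with log2 fold changes of -0.31, -0.00111 and -0.04. Whether such reads came from mature tRNAs or from longer RNAs that span the genes was not tested, and the sources used here do not give the strand setting.

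The other 10 tested tRNA genes lay at a few CPM or less in most libraries, and all had their highest level in GFP replicate 3. mt-Tl2 (leucine) was the highest of them, at 4.36, 3.64 and 5.80 CPM in the Caspase3 group and 3.73, 2.46 and 15.9 CPM in the GFP group. In that library mt-Tl1 (leucine) stood at 6.02 CPM, mt-Tw (tryptophan) at 5.53, mt-Te (glutamate) at 7.25, mt-Ts2 (serine) at 4.70, mt-Ty (tyrosine) at 3.87, mt-Th (histidine) at 3.29 and mt-Tm (methionine) at 2.85 CPM. mt-Tr (arginine) and mt-Tq (glutamine) were lower still, at 0.332 to 1.36 and 0.233 to 1.05 CPM over the 6 libraries.

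Over all tRNA genes with a count, 14 of 20 had their highest CPM in GFP replicate 3, where 16.5% of all tested genes had theirs. The tRNA genes other than mt-Tn, mt-Tc and mt-Tp summed to 54.9 CPM in that library and to 10.4 to 21.9 CPM in the other 5. It is also the library with the high striatal markers, whose part in this was not tested. The 13 tested tRNA genes had adjusted p-values from 0.596 to 0.999 (edgeR). Their log2 fold changes were all negative, from -1.17 for mt-Tm to -0.00111 for mt-Tc, but for 11 of the 13 the sign turned without GFP replicate 3.

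The 9 tRNA genes that did not pass the filter were mt-Tf, mt-Tv, mt-Ti, mt-Ta, mt-Ts1, mt-Td, mt-Tk, mt-Tg and mt-Tt. Of these, 7 had at least 1 count, with no more than 29 in any library. mt-Tf and mt-Ts1 had 0 counts in every library, which allows at most 0.118 to 0.142 CPM per library, counting error only.

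**Figure D5:**
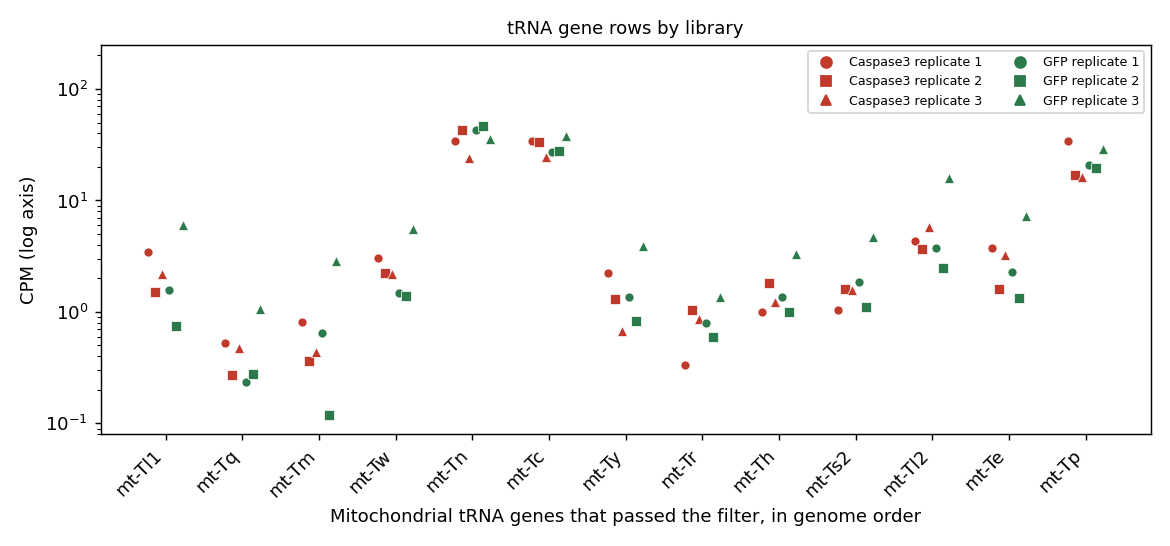
CPM (log axis) of the 13 tested mitochondrial tRNA genes in the 6 libraries, in genome order. Points are single libraries. mt-Tn, mt-Tc and mt-Tp lie between 16.3 and 46.6 CPM, above all other genes shown, and GFP replicate 3 is the highest library in 11 of the 13.

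The shares of mitochondrial counts held by each class overlapped between groups. mRNA genes held 71.6%, 74.1% and 74.6% in the Caspase3 group and 68.7%, 77.8% and 72.7% in the GFP group. rRNA genes held 28.3%, 25.8% and 25.3% against 31.2%, 22.1% and 27.1%. The exact permutation p was 1 for the mRNA, rRNA and tRNA shares alike, and GFP replicates 1 and 2 formed the ends of the range of the mRNA and rRNA shares. Counting error was small beside this, since no gene's 95% Wilson interval reached further than 0.0691 percentage points.

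mt-Co1 alone held 33.6% ± 0.707 of mitochondrial counts in the Caspase3 group and 32.9% ± 2.52 in the GFP group (SD, n = 3 each). mt-Rnr2 held 19.2% ± 2.03 and 20.9% ± 3.23, mt-Cytb 9.77% ± 0.422 and 9.49% ± 0.610, and mt-Nd5 9.54% ± 0.456 and 10.03% ± 0.426. The 6 mRNA genes inside the copied span held only 0.768% ± 0.141 and 0.974% ± 0.343 together. Of 35 gene shares tested, only that of mt-Nd4l did not overlap between groups. It was 0.0592%, 0.0470% and 0.0512% in the Caspase3 group and 0.0596%, 0.0942% and 0.0908% in the GFP group, with Caspase3 replicate 1 next to GFP replicate 1 (exact permutation test p = 0.1, the smallest possible; adjusted p = 1 over the 35). As a ratio to the mitochondrial total, 1.11% of all tested genes were lower in the Caspase3 group without overlap and 17.5% higher.

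The nuclear genes that work with the mitochondrial genome were tested in 10 lists. Of 237 genes, 235 were tested, and edgeR called 0 higher and 0 lower, against 1.53% and 0.114% of all tested genes, a difference too small to be a result about the lists. The median log2 fold change was -0.03, and 136 were negative, against 50.2% of all tested genes. The lists covered the nuclear subunits of complexes I to V (82 tested, median -0.04), mitochondrial ribosomal proteins (77 tested, 0.02), factors of mitochondrial DNA replication and transcription (19 tested, -0.13), RNA processing and stability (30 tested, -0.06), aminoacyl-tRNA synthetases (17 tested, -0.04) and regulators of mitochondrial biogenesis (11 tested, -0.09). The nuclear subunits of complexes I to V summed to 6766, 5946 and 5935 CPM in the Caspase3 group and to 6001, 7208 and 6351 CPM in the GFP group, and the groups overlapped. The summed level did not overlap in 1 of the 10 lists, the 11 regulators of mitochondrial biogenesis, which summed to 452.7, 446.7 and 415.7 CPM in the Caspase3 group and to 488.8, 503.8 and 484.9 CPM in the GFP group. None of these 11 genes passed the test, and 7 had a negative and 4 a positive log2 fold change. Their summed level had an exact permutation p of 0.1, the smallest possible (adjusted p = 0.8 over the 10 lists). The sum leaned on Ppargc1a, whose group means were 104.5 and 137.9 CPM (Caspase3, then GFP), where those of the sum were 438.3 and 492.5 CPM.

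The most abundant member of each list is given as an example, taken by rule because none was called. It does not stand for its list: Polg had a log2 fold change of 0.02 where its list's median was -0.13. Ndufs1, a complex I subunit with iron-sulfur clusters, stood at 146.0 ± 6.68 CPM against 163.0 ± 10.2 CPM (SD, n = 3 each; Caspase3 first here and below). Sdha, the flavoprotein of complex II, stood at 430.3 ± 25.96 against 456.3 ± 31.3 CPM. Uqcrc2, a complex III core protein, stood at 162.4 ± 4.84 against 176.9 ± 15.8 CPM. The groups overlapped for Sdha and Uqcrc2. They did not for Ndufs1 (141.7 to 153.7 against 156.4 to 174.7 CPM), where 6.29% of all tested genes were lower without overlap. The adjusted p-values (edgeR) of Ndufs1, Sdha and Uqcrc2 were 0.598, 0.825 and 0.716.

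Cox4i1, a regulatory subunit of complex IV, stood at 196.1 ± 32.1 against 200.8 ± 16.5 CPM. Atp5b, the catalytic beta subunit of ATP synthase, stood at 1005 ± 104 against 1111 ± 116 CPM. Polg, the catalytic subunit of the mitochondrial DNA polymerase, stood at 44.4 ± 4.11 against 43.8 ± 5.40 CPM. For these 3 nuclear genes the groups overlapped. Grsf1, which binds mitochondrial RNA in its processing granules, stood at 102.7 ± 7.49 against 110.4 ± 10.9 CPM, and Mrpl3, a protein of the large mitochondrial ribosomal subunit, at 54.9 ± 0.795 against 58.0 ± 3.67 CPM.

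Lars2, the mitochondrial leucyl-tRNA synthetase, varied widely between libraries: 403.9, 280.4 and 467.6 CPM in the Caspase3 group and 475.8, 91.4 and 332.3 CPM in the GFP group. GFP replicate 2, the lowest library of mt-Rnr1, was also the lowest of Lars2. Its log2 fold change was 0.36 ± 0.47 (edgeR, adjusted p = 0.837). Ppargc1a, which encodes the coactivator PGC-1α of mitochondrial biogenesis, stood at 108.8, 108.5 and 96.2 CPM against 142.4, 145.4 and 125.8 CPM. Its groups did not overlap, and GFP replicate 3 lay nearest to the Caspase3 libraries. The log2 fold change was -0.40 ± 0.10 (edgeR, adjusted p = 0.111), which did not pass.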

How the data were processed

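The authors deposited a table of raw read counts per gene and a table of FPKM (fragment counts scaled by gene length and library total) for the same 6 libraries. Per the submitters' processing notes, which give no versions, roles or settings, reads were processed against mm10 (GRCm38) with tools that included featureCounts, HISAT2 and DESeq2. The sources used here do not say how reads with several matches were handled. Per the labels' protocols, RNA was extracted with TRIzol and libraries marked the second strand. Within each library the deposited FPKM values were proportional to count over gene length.

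The quasi-likelihood test of edgeR 4.0.16 (R 4.3.3) was run on the counts of all 6 libraries after filterByExpr and TMM, with group as the only term, Benjamini-Hochberg adjustment over the 16721 genes tested and a threshold of 0.05. DESeq2 1.42.0 and limma 3.58.1 were alternatives, as were other scalings, filters, FPKM with a pseudocount of 0.1 or 1, the replicate block and leaving out each library. Single values per library were compared by exact two-sided permutation tests, which cannot go below 0.1 with 3 against 3. Wilson intervals came from SciPy 1.17.1. On simulated counts over 16721 genes for Caspase3 against GFP, edgeR recovered 21.3%, 60.9% and 92.9% of genes changed 1.5-, 2- and 4-fold, and 6.98% of its calls were false. DESeq2 recovered 39.3%, 69.6% and 94.3% of them, and 15.3% of its calls were false. For limma-voom 7.58% of calls were false. Between replicates of a group the mean chi-square per gene was 11.4 to 29.7, so no library was a duplicate within sampling noise.

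Sequences and nuclear copies came from the GENCODE M21 transcripts (GRCm38), searched with BLAST 2.17.0 for matches of at least 60 bases and 90% identity; near-identical means at least 99%. No genome sequence was used. The text names all mRNA and rRNA genes, the tRNA genes that passed the filter, the 6 most abundant near-identical nuclear copies (the seventh, Gm28438, was added after its values were seen), and for each nuclear list up to 3 called members or, with none called, the most abundant. The nuclear list of complex I left out 1 name that matched no row. The members and lists were chosen with earlier results of these data known.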

Additional observations from a re-analysis of the deposited data

How the results depend on the processing

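With the main settings 0 mitochondrial genes were called in either direction, and 0 were called higher under any alternative. DESeq2 called 2 lower and the fit with no filter on low counts 4 lower, where 0.481% and 0.79% of all their genes were lower; leaving out a library gave 0 to 2 lower (1 without Caspase3 replicate 1, 1 without GFP replicate 1 and 2 without GFP replicate 3, where 0.193%, 0.104% and 0.0761% of all tested genes were lower). The other alternatives gave 0. mt-Atp8 passed with DESeq2, with no filter and without GFP replicate 3, and its adjusted p ran from 3.23e-05 to 0.548 over all alternatives. mt-Nd4l passed with DESeq2, with no filter and without Caspase3 replicate 1 or GFP replicate 1 (range 4.95e-06 to 0.316), mt-Co3 with no filter and without GFP replicate 3 (5.94e-05 to 0.591), and mt-Atp6 with no filter (5.85e-05 to 0.624). Why the fit with no filter called more was not tested. The median log2 fold change of the tested mitochondrial genes stayed negative, from -0.40 to -0.091 when a library was left out.

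Over all genes the reported edgeR fit called 274. No filter gave 913, DESeq2 497, log2(FPKM + 1) 170, and 17 and 144 were called without GFP replicates 2 and 3. With the replicate number as a block, 421 genes were called over all and 0 mitochondrial genes. The deviations of same-numbered libraries correlated by 0.070, 0.207 and 0.038. Caspase3 replicates 2 and 3 correlated best with the GFP library of their own number, and Caspase3 replicate 1 with GFP replicate 3 (0.085). The labels state no pairing, and whether same-numbered libraries shared a batch was not tested. Of the 10 nuclear lists, 1 gene was lower with DESeq2, 1 higher and 2 lower with no filter, and 1 higher with the replicate block, where the reported fit had 0.

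Signs turned only among genes that passed under no setting. mt-Tl1 was 0.24 with limma-voom, 0.21 and 0.19 with log2(FPKM + 0.1) and log2(FPKM + 1), and 0.10 with the replicate block. mt-Tw was 0.13, 0.11, 0.10 and 0.053 with the same settings. mt-Tc was 0.0065 with upper-quartile factors, 0.054 with library totals, 0.000286 with no filter and 0.000398 with a CPM of at least 1 in 3 libraries, and mt-Tp was 0.020 with library totals. Leaving out a library gave log2 fold changes of -0.071 to 0.30 for mt-Rnr1, -0.26 to 0.14 for mt-Co2, -0.68 to 1.03 for mt-Tl1, -0.63 to 0.70 for mt-Tq, -1.72 to 0.49 for mt-Tm, -0.50 to 0.78 for mt-Tw, -0.085 to 0.16 for mt-Tc, -1.02 to 0.34 for mt-Ty, -0.57 to 0.12 for mt-Tr, -0.79 to 0.20 for mt-Th, -1.10 to 0.57 for mt-Tl2, -0.73 to 0.66 for mt-Te and -0.47 to 0.13 for mt-Tp. The cause was not tested.

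The difference in the mRNA share of mitochondrial counts (Caspase3 minus GFP, percentage points) was 0.324, and -0.205 from counts per base of gene length; that in the rRNA share was -0.320, and 0.298 per base. Leaving out a library gave -1.87 to 2.69 for mRNA, -2.67 to 1.88 for rRNA, -0.0154 to 0.0140 for tRNA and -0.381 to 2.07 for mt-Co1. Of the 22 tRNA genes, 9 fell below the filter at this depth and could not be tested.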

Other observations

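In the GENCODE M21 transcripts of genes in the count table, other nuclear copies were less similar than those of the chromosome 1 span, at 97.6% identity or lower. The pseudogene rows named here held few counts. Copies outside annotated transcripts could not be found, since no genome sequence was searched. Gm13340 on chromosome 2 copies the whole of mt-Co1 at 97.6% identity and had 77 to 181 counts per library, and Gm13341 copies mt-Co2 at 95.9% and had 50 to 97. Gm4076 on chromosome 13, at 95.2% identity to part of mt-Nd5, had 26 to 62 counts. The near-identical chromosome 1 rows had 311 (Gm28438) to 10711 counts (Gm10925) in single libraries. The transcripts of Cep295, a centrosomal protein gene on chromosome 9, held matches to 62 bases of mt-Tl1 (93.5% identity) and all 71 bases of mt-Tn (91.5%), and its row had 475 to 648 counts per library. What share of the reads on any of these rows came from mitochondrial RNA was not tested.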
